A study of Ericerus pela with 2 samples.

Results

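Fatty acid synthase is the enzyme that builds long-chain fatty acids from acetyl-CoA and malonyl-CoA, and it was followed here in males of the Chinese white wax scale insect, Ericerus pela. A total of 64 unigenes (assembled transcript fragments) of 120710 named fatty acid synthase in their best protein database match, and they were chosen by that name alone, whatever their values. The samples were 1 library of whole bodies of wild type male prepupae and 1 of wild type male pupae, both labelled with an age of 90 that has no unit. Total RNA was used. The submitters' design note speaks of retina, whereas the labels of both samples give the whole insect body; it also states that there were no replicates.

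In insects and other animals the enzyme is a single long polypeptide whose domains work in turn. An acyltransferase loads the substrates onto a carrier domain, a ketoacyl synthase joins them, a ketoreductase and an enoyl reductase reduce the product with NADPH, a dehydratase acts between them to remove water, and a thioesterase releases the finished chain. The fatty acids feed triglyceride stores, membranes, cuticular hydrocarbons and wax esters. Male nymphs of this species secrete wax before the stages compared here, and in males the prepupa and pupa lead to a winged adult without working mouthparts.

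The prepupal library held 2.18 M uniquely assigned reads (M, units of 1000000) on 106752 unigenes and the pupal library 1.84 M on 94524. Every comparison is of single libraries, so it could not be checked in replicates and no p-value is given. Levels are RPKM, reads divided by the unigene's length in kilobases and by the library total. A unigene was called lower or higher in pupae where the ratio of RPKM + 1 was at least 2-fold, among the 113976 unigenes whose RPKM averaged 1 or more. Of these, 44893 (39.4%) were lower in pupae and 26264 (23.0%) higher, with a median log2 ratio of −0.49. With TMM scaling 34187 were lower and 32761 higher, with median-of-ratios scaling 35528 and 31839, and after centring on that median 35653 and 34176. Folds divide one library's share of reads by the other's, with an exact (Clopper-Pearson) 95% interval that covers counting error only. Where a library had 0 reads, the fold was computed against a floor of 3 reads in that library and is written "at least".

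Most fatty acid synthase unigenes were far lower in pupae than in prepupae, and a small set did the reverse. Of the 61 members above the filter, 53 (86.9%) were lower, against 39.4% of all unigenes, 7 (11.5%) were higher, against 23.0%, and 1 was neither. The other 3 members lay below the filter with 1 to 3 reads each. Among unigenes with a database match, 41.4% were lower and 14.7% higher. On the same scale, 42 of the 61 (68.9%) were at least 8-fold lower, against 6.95% of all unigenes, and 5 at least 8-fold higher, against 4.43%. Counting members of at least 50 reads alone, 30 of 34 were lower, against 36.2% of all unigenes of that depth, and 4 higher, against 19.8%; 27 were at least 8-fold lower, against 6.74%, and 4 at least 8-fold higher, against 6.61%. The members' median log2 ratio was −4.67, with quartiles of −5.88 and −2.40, which is −4.18 relative to the overall median. With members that had no reads in 1 library set at their bound, the median over the 54 members for which a fold could be given was −4.00. The same 53 and 7 members were called under TMM scaling, median-of-ratios scaling and centring.

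Several unigenes may be fragments of 1 transcript or copies of related genes, so a number of unigenes is not a number of genes. Together the 64 unigenes held 3526 reads in prepupae and 412 in pupae. These were 0.162% of all prepupal reads (95% interval 0.156 to 0.167) and 0.0224% of pupal reads (0.0203 to 0.0246), a 7.22-fold lower sum (6.52 to 8.02). That sum mixes opposite movements. Without the 7 members called higher, 57 unigenes held 3524 reads in prepupae and 93 in pupae, a 32.0-fold lower sum (26.0 to 39.7). As the 7 were left out for their own values, a larger decrease was bound to follow. The 7 alone held 2 and 319 reads, 77.4% of the pupal fatty acid synthase reads (73.1 to 81.4). In RPKM, which divides reads by length and so gives short fragments more weight, the sum was 7.22-fold lower as well. In bulk libraries of whole bodies, fewer cells that express a gene and less RNA per cell cannot be told apart.

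**Figure D1:**
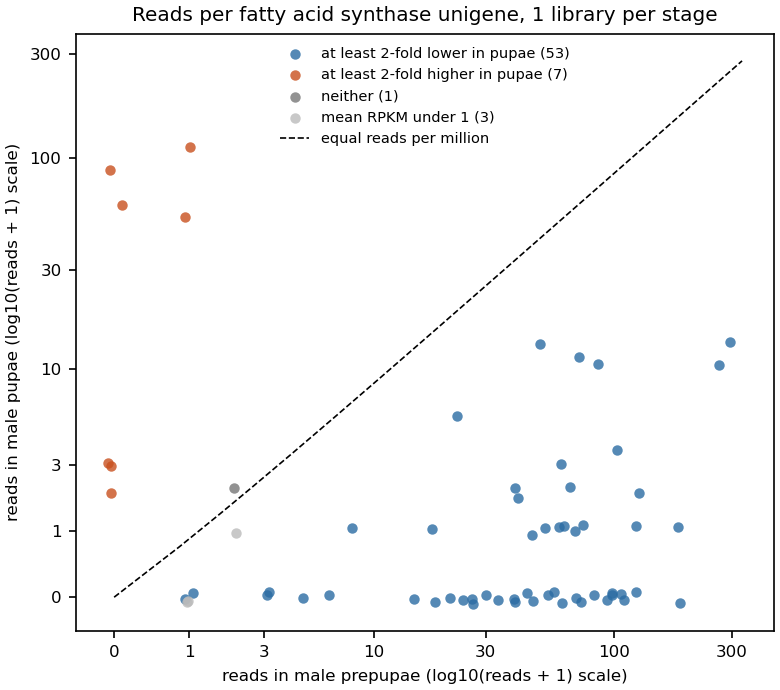
Reads of each of the 64 fatty acid synthase unigenes in male prepupae (x axis) and male pupae (y axis), both on a log10(reads + 1) scale with a small random shift so that equal values can be seen, 1 library per stage. The 53 members called lower lie mostly toward the bottom right, 31 of them at 0 pupal reads, and some of these at the bottom left with 1 to 6 prepupal reads. The 4 abundant members called higher lie at the top left with 0 or 1 prepupal read, away from the dashed line of equal shares of the library.

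Of the 64 members, 33 had reads in prepupae alone, 5 in pupae alone and 26 in both. The counting interval of the fold excluded no change for 46 members that were lower and 4 that were higher. It included no change for 14, none of which had more than 9 reads in total; 7 of these were called lower by the rule of size and 3 higher. The calls of these 10 members rest on few reads. The single member that was neither, Unigene108691, had 2 reads in each library. It was the member just outside the rule of size, with a log2 ratio of 0.20. Just inside it were Unigene128968 on the lower side (−1.57) and Unigene152612 on the higher side (1.74).

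The most abundant member in prepupae was Unigene47547, a fragment of 161 bases whose best match was the synthase of the wasp Nasonia vitripennis. It had 294 reads (837 RPKM) at that stage, which placed it 22nd of all unigenes there by RPKM, and 13 reads (43.9 RPKM) in pupae, 19.1-fold lower (11.0 to 36.3). Next came Unigene124509, matched to the beetle Tribolium castaneum, with 250 reads (377 RPKM) and 11 reads (19.7 RPKM), 19.2-fold lower (10.5 to 38.9). These were high in prepupae and still measurable in pupae. The 2 ant-matched fragments that followed by reads were close to absent from pupae. Unigene151550 had 195 reads (138 RPKM) in prepupae and 0 in pupae, at least 54.8-fold lower. Unigene156774, one of 3 members longer than 1000 bases, had 171 reads (64.0 RPKM) and 1 read (0.443 RPKM), 144-fold lower (25.5 to 5731).

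Among the 30 lower members with at least 50 reads in both libraries together, prepupal levels ran from 24.7 to 837 RPKM with a median of 71.4. The middle portion of this range, between the quartiles, was narrow, from 55.2 to 106 RPKM. Pupal levels had a median of 0.620 RPKM and reached at most 43.9. Reads were spread along the fragments and were not confined to a stretch of them, since 83.6% to 99.4% of each unigene's length was covered in prepupae (median 95.2%).

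Among these lower members the reads left in pupae ran from 0 to 13, and no difference between members was tested. Of these 30 unigenes, 13 had 0 pupal reads, 12 had 1 to 4 and 5 had 11 to 13. The 13 at 0 make up 38.2% of all 34 members of this depth, against 1.38% of all unigenes with at least 50 reads, and were at least 15.7-fold to at least 54.8-fold lower. The other 17 were 3.05-fold to 144-fold lower, with a median of 41.3-fold. Unigene155821, matched to the ant Harpegnathos saltator, had 124 reads (57.6 RPKM) in prepupae and 1 (0.551 RPKM) in pupae, 105-fold lower (18.4 to 4165). Unigene25357, matched to the ant Camponotus floridanus, had 121 reads (50.1 RPKM) and 2 (0.981 RPKM), 51.0-fold lower (13.8 to 426). Both were therefore near the limit of detection in pupae.

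A few members kept more of their prepupal level. Unigene128968 had 47 reads (66.1 RPKM) in prepupae and 13 (21.7 RPKM) in pupae, 3.05-fold lower (1.62 to 6.14). Unigene142095 had 73 reads (76.9 RPKM) and 11 (13.7 RPKM), 5.60-fold lower (2.95 to 11.7). Unigene29600, at 1538 bases the longest member, had 83 reads (24.7 RPKM) and 11 (3.89 RPKM), 6.37-fold lower (3.38 to 13.2). These 3 had the smallest decreases among the members of at least 50 reads, and no difference between members was tested. Among members under 50 reads, Unigene62705, with 23 and 6 reads, was 3.23-fold lower (1.28 to 9.71).

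**Figure D2:**
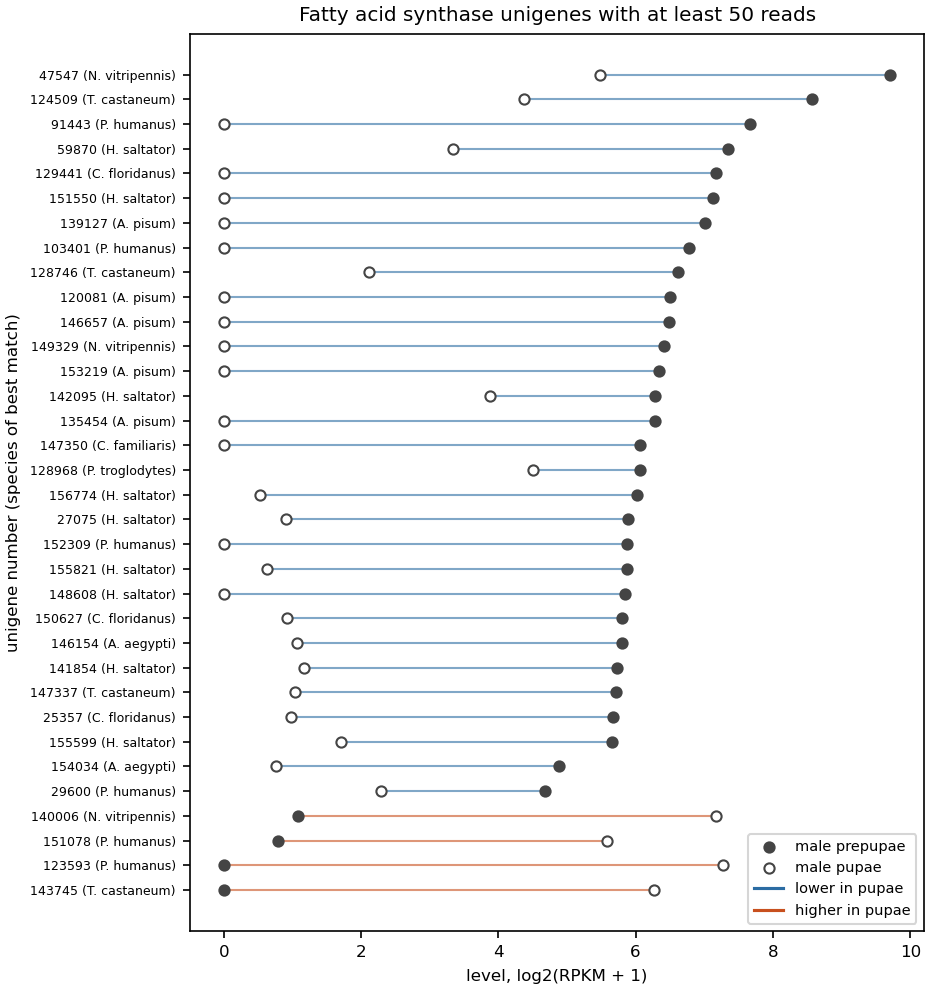
Level in log2(RPKM + 1) of the 34 fatty acid synthase unigenes with at least 50 reads, in male prepupae (filled circles) and male pupae (open circles), 1 library each, joined by a blue line where lower in pupae and an orange line where higher. The 30 lower members start between 24.7 and 837 RPKM and 13 of them end at 0, whereas the 4 higher members start at no more than 1.11 RPKM and end between 46.8 and 154. The calls were made from these same values.

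The members that ran against the rest were nearly silent in prepupae. Unigene140006, a fragment of 412 bases, had 1 read (1.11 RPKM) in prepupae and 108 (142 RPKM) in pupae, 128-fold higher (22.5 to 5103). Unigene123593, of 300 bases, had 0 reads and 85 (154 RPKM), at least 33.6-fold higher. It was the highest fatty acid synthase unigene of the pupal library and ranked 3192nd there by RPKM, far from the rank of Unigene47547 in prepupae. Unigene143745, of 457 bases, had 0 and 64 reads (76.1 RPKM), at least 25.3-fold higher. Unigene151078, of 627 bases, had 1 read (0.731 RPKM) and 54 (46.8 RPKM), 64.0-fold higher (11.0 to 2574). These 4 unigenes add up to 1796 bases, held 2 reads in prepupae and 311 in pupae, and carried 75.5% of the pupal fatty acid synthase reads (71.0 to 79.6). Reads covered 86.4% to 97.8% of their length in pupae.

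The other 3 members called higher were shallow. Unigene152612 and Unigene72668 had 0 reads in prepupae and 3 in pupae, and Unigene112472 had 0 and 2, so no fold is given for them. In pupae the 4 abundant ones stood above the level that any lower member kept, the closest being Unigene47547 at 43.9 RPKM beside Unigene151078 at 46.8. In prepupae the order was the opposite, with all 4 at or below 1.11 RPKM and every lower member of at least 50 reads at or above 24.7 RPKM. Both groups were formed by the call and by at least 50 reads, so these separations follow largely from that choice.

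Lower and higher members often had the same best match. The 64 members matched 27 different proteins from 14 species, with E-values from 3.53e-115 to 6.38e-06 in the deposited text. Of the 7 members called higher, 6 shared their best-match protein with a member called lower, and 5 proteins were matched in both directions. Among these 6, Unigene152612 rests on 3 reads and Unigene112472 on 2. The Aedes aegypti protein of Unigene112472 was matched in both directions only through that unigene. For instance, the Nasonia vitripennis protein of Unigene47547 was also that of Unigene140006 and of Unigene149329, which had 105 reads (84.6 RPKM) in prepupae and 0 in pupae, at least 29.5-fold lower. A protein of the louse Pediculus humanus corporis was matched by 6 members, of which 4 were lower, among them Unigene29600, and 2 higher, among them Unigene151078. Another of these 4, Unigene91443, had 96 reads (202 RPKM) and 0, at least 27.0-fold lower, with the lowest log2 ratio of all members (−7.66). A second louse protein was matched by Unigene123593 and by 3 lower members. Of these, Unigene152309 had 86 reads (57.8 RPKM) and 0, at least 24.2-fold lower, and Unigene103401 had 57 (108 RPKM) and 0, at least 16.03-fold lower. The third member of the Tribolium castaneum protein of Unigene124509 and Unigene143745 was Unigene87953, with 36 and 0 reads. The seventh higher member, Unigene72668, was alone in matching the synthase of the cow, Bos taurus.

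By species of best match, the ant Harpegnathos saltator led with 15 members, 14 lower and 1 neither, which held 1043 prepupal and 25 pupal reads and were 35.2-fold lower in sum. Camponotus floridanus followed the same course, with 8 of 8 members lower and 432 and 10 reads. The 9 members matched to the pea aphid Acyrthosiphon pisum, the closest relative of scale insects among these species, were all lower and held 515 reads in prepupae and 0 in pupae. Of these, 7 matched 1 aphid protein, with 504 and 0 reads. The deepest was Unigene153219, with 127 reads (79.6 RPKM) and 0, at least 35.7-fold lower. Pediculus humanus corporis had 7 of 10 members lower and 3 higher, with 387 and 155 reads, Tribolium castaneum 4 of 5 lower and 1 higher, with 413 and 78, and Aedes aegypti 4 of 5 filtered members lower and 1 higher, with 151 and 7. The other 6 members of that aphid protein held 112 reads (127 RPKM) for Unigene139127, 98 (88.9 RPKM) for Unigene146657, 62 (76.8 RPKM) for Unigene135454, 56 (89.7 RPKM) for Unigene120081, 30 (25.8 RPKM) for Unigene3325 and 19 (45.8 RPKM) for Unigene70048 in prepupae, and each had 0 in pupae. Summed, the 7 were at least 142-fold lower. A Harpegnathos saltator protein matched by Unigene151550, Unigene156774 and Unigene90695 held 394 reads and 1, 332-fold lower (59.3 to 13162), and a second, matched by Unigene27075, Unigene148608 and Unigene141854, 196 and 2, 82.7-fold lower (22.6 to 687). Another protein of that ant, matched by 7 members, held 303 and 21, 12.2-fold lower (7.82 to 20.0). Of these 7, Unigene155599 had 103 reads (49.5 RPKM) and 4 (2.28 RPKM), Unigene59870 had 63 (162 RPKM) and 3 (9.16 RPKM), and Unigene142095 had 73 and 11, whereas Unigene146887 had 39 (35.0 RPKM) and 0. These proteins were picked after their values had been seen, and the difference between them was not tested.

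A Camponotus floridanus protein was matched by 4 members, with 246 and 7 reads, 29.6-fold lower (14.2 to 74.5). Of these, Unigene129441 had 103 reads (143 RPKM) in prepupae and Unigene147561 had 47 (41.0 RPKM), both with 0 in pupae, Unigene150627 had 73 (54.8 RPKM) and 1 (0.889 RPKM), and Unigene62705 held the 6 other pupal reads. The 2 Tribolium castaneum fragments named for the S-acetyltransferase domain of the synthase were both lower. Unigene128746 had 69 reads (97.3 RPKM) and 2 (3.34 RPKM), 29.1-fold lower (7.76 to 245), and Unigene147337 had 58 (51.2 RPKM) and 1 (1.05 RPKM), 48.9-fold lower (8.44 to 1966). Of the Aedes aegypti matches, Unigene146154 had 59 and 1 reads and Unigene154034 had 49 and 1. Matches to mammals were few, with 4 members, 3 lower and 1 higher. The deepest of these, Unigene147350, best matched in the dog Canis familiaris, had 75 reads (66.1 RPKM) and 0. Since such classes were small and may hold fragments of the same transcripts, no difference between species was tested.

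**Figure D3:**
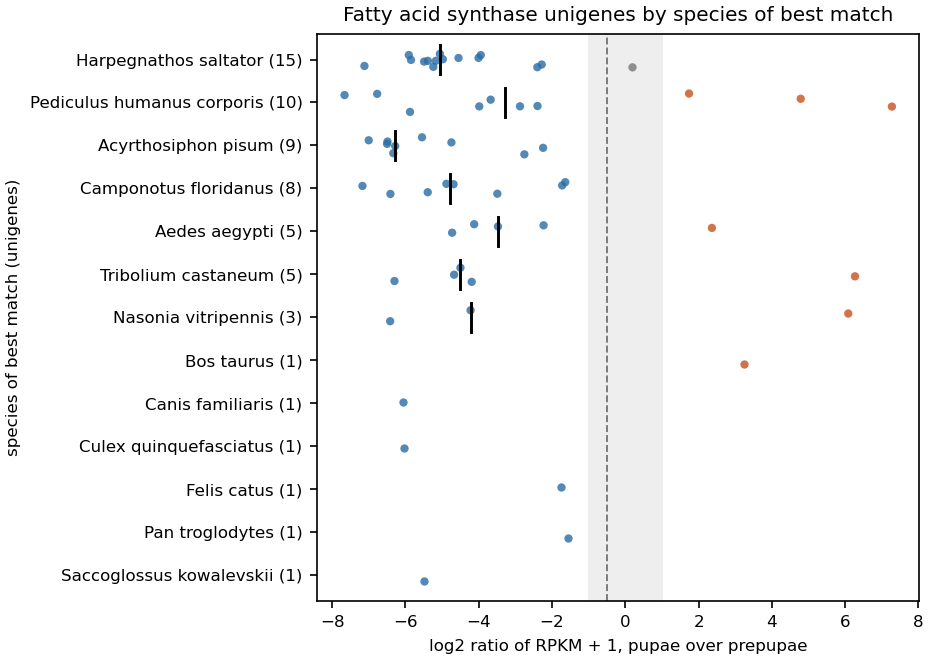
Log2 ratio of RPKM + 1 in male pupae over male prepupae for the 61 filtered fatty acid synthase unigenes, grouped by the species of their best match (number of unigenes in brackets), with blue for lower, orange for higher and grey for neither. Black bars mark the median of groups of at least 3, the dashed line marks the median of all unigenes at −0.49 and the shaded band the range within 2-fold. The orange points fall in the louse, mosquito Aedes aegypti, beetle, Nasonia vitripennis and cow groups, and the ant and aphid groups have none. The orange point of Aedes aegypti rests on 2 reads, and that of the cow and 1 of the louse on 3 reads each.

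Members were longer than most unigenes, with a median of 407.5 bases against 254 over the series, and their lengths added up to 29421 bases. They were drawn from the 27626 unigenes with a database match, whose lengths were not compared. Lower members were the majority in each class of length. Of 15 filtered members under 250 bases 14 were lower and 1 higher, against 42.0% and 26.8% of all unigenes of that length. From 250 to 499 bases, 17 of 22 were lower and 4 higher, against 36.5% and 20.5%. At 500 bases or more, 22 of 24 were lower and 2 higher, against 37.7% and 15.9%. The summed reads of the longest class were 18.3-fold lower (14.7 to 23.1), with 1798 and 83 reads. In the middle class, which holds Unigene140006, Unigene123593 and Unigene143745, they were 2.93-fold lower, with 1052 and 303.

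The members were also sorted by their deposited Gene Ontology terms, which were given per fragment. Of the 64, 61 had any term for molecular function. Fragments with the same best-match protein could fall in different classes, such as Unigene151550 in the first below and Unigene156774 in the second. Of the 64, 48 carried acyl-[acyl-carrier-protein] hydrolase activity, the thioesterase step, 11 carried only the broader fatty-acid synthase activity, and 5 carried neither. Counts per class are read beside the 39.4% lower and 23.0% higher of all unigenes. In the first class 38 of 46 filtered members were lower and 7 higher, with 2397 and 378 reads in sum. The second class had 10 of 10 filtered members lower, with 900 and 23 reads, 33.0-fold lower in sum. In the third class all 5 were lower. All 7 higher members thus carried the hydrolase term, as did most of the lower ones.

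Transcripts of the same enzyme can also carry other names. In Drosophila melanogaster the gene models CG3523 and CG17374 are FASN1, used in the fat body, and FASN3, used in oenocytes, the cells that make cuticular hydrocarbons. These names, and the names p260, p270 and GA17497, which occurred among unigenes with synthase terms, were chosen after values had been seen. Their counts are read beside the 39.4% lower and 23.0% higher of all unigenes. The 37 unigenes named CG17374 resembled the members, with 29 of 36 filtered unigenes lower and 4 higher, 2540 and 184 reads, and a median log2 ratio of −4.36. The 32 named p260 or p270 had 29 lower and 1 higher, with 1783 and 24 reads, and those named GA17497 had 7 of 8 lower and none higher, with 633 and 7. Unigenes named CG3523 were divided, as 6 of 13 were lower, with 1463 and 43 reads, and 7 were higher, with 14 and 950. Of these, the share lower was near that of all unigenes, and the share higher was above it. The largest increase by reads under this name was Unigene32225, of 1659 bases, with 6 reads (1.66 RPKM) in prepupae and 376 (123 RPKM) in pupae, 74.3-fold higher (33.8 to 204). Beside it, Unigene127723 under the same name had 415 reads (594 RPKM) and 13 (22.1 RPKM), 26.9-fold lower (15.6 to 51.0). The difference between these names was not tested.

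**Figure D4:**
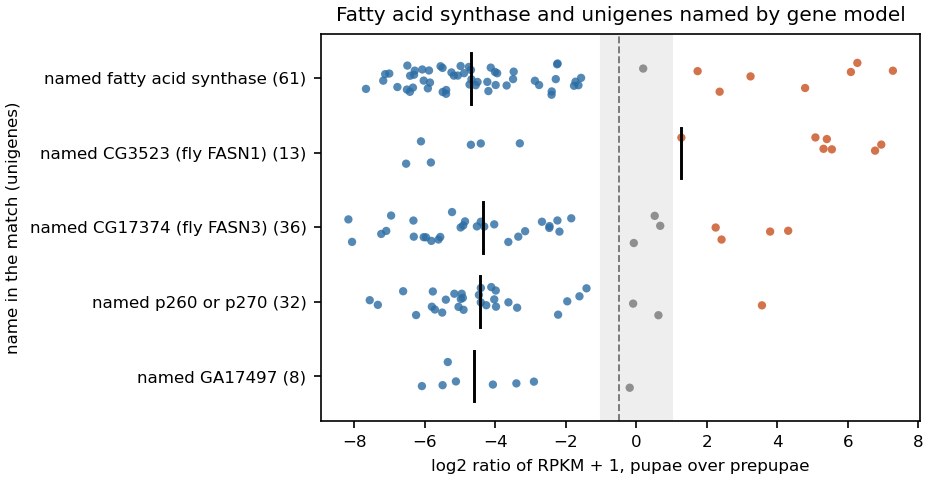
Log2 ratio of RPKM + 1 in male pupae over male prepupae for filtered unigenes named fatty acid synthase and for those named by gene model or as p260 or p270 (number of unigenes in brackets), with blue for lower, orange for higher and grey for neither. Black bars mark medians, the dashed line marks the median of all unigenes at −0.49 and the shaded band the range within 2-fold. The points named CG3523 fall into a lower group of 6 and a higher group of 7, and each other name has most points on the lower side.

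Of 13 filtered unigenes for steps that supply the synthase with substrate, 12 were lower in pupae and none higher, against 39.4% and 23.0% of all unigenes. Acetyl-CoA carboxylase, which makes malonyl-CoA, had 5 of 5 unigenes lower, with 732 and 49 reads, 12.6-fold lower in sum (9.43 to 17.2). Its unigene with most reads, Unigene75817, had 309 reads (719 RPKM) in prepupae and 24 (66.2 RPKM) in pupae. The next, Unigene84698, had 171 (377 RPKM) and 9 (23.5 RPKM). Enzymes that supply NADPH had 6 of 7 lower and none higher. Among them, a malic enzyme, Unigene74814, had 154 and 29 reads, 4.48-fold lower (2.998 to 6.91), and a glucose-6-phosphate dehydrogenase, Unigene197, had 152 and 21, 6.11-fold lower (3.85 to 10.2). The only mitochondrial citrate carrier unigene, Unigene38189, whose product brings citrate to the cytosol as a source of acetyl-CoA, had 150 and 23 reads, 5.50-fold lower (3.53 to 8.95). No unigene matched the pattern for ATP-citrate lyase.

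Partners of fatty acid synthesis varied in how far they followed. The single phosphopantetheinyl transferase unigene, Unigene156219, whose product attaches the carrier arm of the synthase, had 31 and 2 reads. All 5 unigenes assigned by name to the separate mitochondrial pathway were lower, led by a malonyl-CoA transacylase, Unigene148783, with 221 and 12 reads, 15.5-fold lower (8.72 to 30.5), and followed by Unigene146217, with 85 and 2. Unigene148783 also carried a deposited term of fatty-acid synthase or acyl-[acyl-carrier-protein] hydrolase activity, so its name alone places it there. Whether it is a fragment of the synthase was not tested. The pathway of the sterol regulatory element-binding protein, a regulator of lipid synthesis genes, had 2 of 6 lower and 1 higher. Over all unigenes 39.4% were lower and 23.0% higher, so the counts of this pathway lie near those shares. The one with most reads, Unigene155290, had 198 reads (99.6 RPKM) and 147 (87.7 RPKM), 0.880-fold (0.706 to 1.09). The next by reads, the shorter Unigene142311, had 164 (172 RPKM) and 108 (134 RPKM), 0.781-fold (0.607 to 1.001).

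Enzymes that use the products did not share 1 direction, and their counts are read beside the 39.4% lower and 23.0% higher of all unigenes. Elongases had 10 of 16 unigenes lower and 2 higher. The 2 with most reads went apart, Unigene100222 with 39 and 91 reads and Unigene138986 with 66 and 11. Desaturases had 9 of 18 lower and 4 higher, and both of those with most reads, Unigene27535 with 24 and 282 and Unigene155992 with 46 and 254, were higher. Of 8 fatty acyl-CoA reductases, which make the alcohols of wax esters, 4 were lower and 1 higher, or 2 higher after centring. In the one with most reads, Unigene105450, 145 and 7 reads were counted, and in the next, Unigene147616, 65 and 82. Long-chain acyl-CoA ligases, which activate fatty acids for storage or breakdown, had 7 of 14 higher and 3 lower, with 427 and 2651 reads, 7.36-fold higher in sum (6.64 to 8.17). Only 1 of them was lower under TMM scaling, median-of-ratios scaling or centring. Of the 2 ligase unigenes with most reads, Unigene119148 had 102 and 677 and Unigene81319 had 73 and 551. Fatty acid transport proteins had 0 of 3 called in either direction, with 126 and 62 reads for Unigene59686 and 37 and 20 for Unigene137884. Over all these lists, 46 of 84 filtered unigenes were lower and 15 higher, so the shares of some single lists, such as elongases, desaturases and reductases, lie nearer to those of all unigenes than that of the synthase does. Their reads in sum, 4173 and 4466, were 1.27-fold higher in pupae (1.22 to 1.32) although the median log2 ratio was negative (−1.48). The higher sum rests on the acyl-CoA ligases, with 427 and 2651 of these reads. Without that list the sum was lower in pupae.

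**Figure D5:**
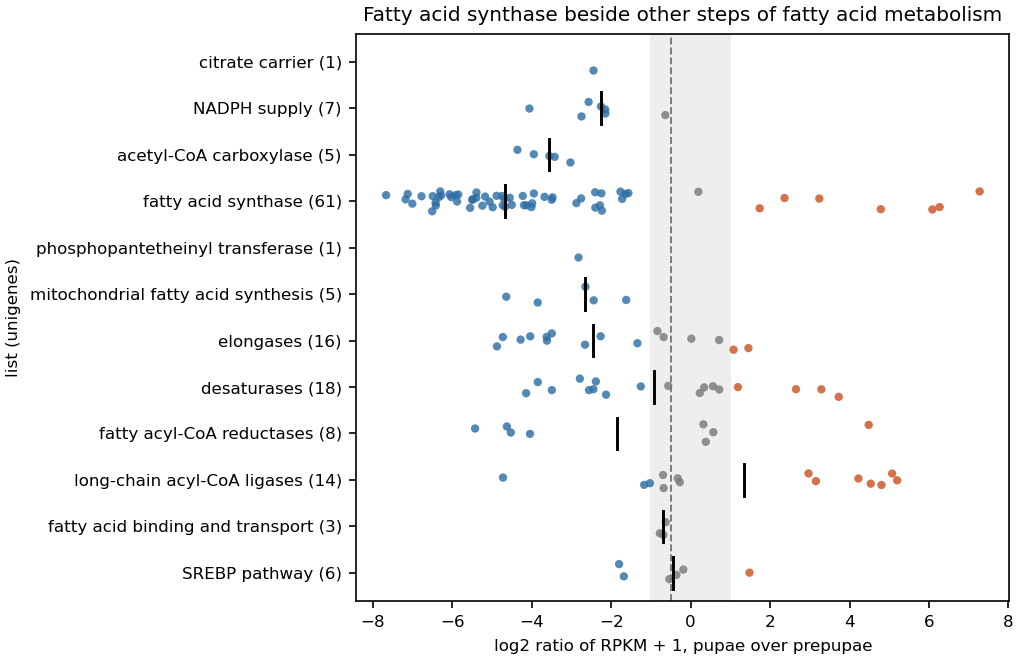
Log2 ratio of RPKM + 1 in male pupae over male prepupae for filtered unigenes of fatty acid synthase and of other steps of fatty acid metabolism (number of unigenes in brackets), with blue for lower, orange for higher and grey for neither. Black bars mark medians of lists of at least 3, the dashed line marks the median of all unigenes at −0.49 and the shaded band the range within 2-fold. Acetyl-CoA carboxylase lies wholly on the lower side, fatty acid synthase mostly so, and the acyl-CoA ligases have 7 of 14 points on the higher side.

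Transcripts of cells known to make fatty acids in insects were also read. Fat body and haemolymph proteins such as apolipophorin and vitellogenin had 4 of 20 unigenes lower and none higher, fewer on both sides than the 39.4% and 23.0% of all unigenes. They held 1897 prepupal and 1122 pupal reads, a 1.43-fold lower sum (1.32 to 1.54), with a summed level of 1808 RPKM in prepupae and 1263 in pupae, and none of the 20 was at 0 in either library. The 2 with most reads went apart. The apolipophorin Unigene155837 had 181 and 146 reads, 0.956-fold (0.764 to 1.20), and the vitellogenin Unigene151183 had 236 and 30, 6.64-fold lower (4.53 to 10.1). The list was made by name and also took in a melanotransferrin, Unigene156231, with 152 and 84 reads. Cytochrome P450 4G unigenes, a class that marks oenocytes, had 2 of 6 lower and 2 higher, with 125 and 280 reads, a summed level of 143 RPKM and 321 RPKM, and none at 0. The higher sum rests on Unigene145825, with 7 and 197 reads. Without it the other 5 held 118 and 83, a ratio of 0.834 (0.622 to 1.11). The part of these cells in the fatty acid synthase values was not tested.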

How the data were processed

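Per the file headers, the deposited tables list unigenes with a count of uniquely assigned reads, a length, the percent of that length covered, the RPKM and the best protein match. The assembler, aligner, database version and any filter were not given in the sources used here. Deposited counts summed to the header totals, and the authors' RPKM equalled the recomputed value for 100% of values (relative tolerance 1e-06). Since reads were counted only where uniquely assigned, near-identical copies could share reads that went uncounted.

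Both stages were merged by unigene identifier, printed here without its shared suffix, and an absent unigene was given 0 reads. Members matched "fatty acid synthase" or "fatty-acid synthase", ignoring case. Members were set by this name alone, but the name, the lists and the comparisons were chosen with earlier results of these data known. Named were members with at least 50 reads or called higher, those nearest the rule of size, and the 2 deepest unigenes of each pathway list. Further members, and unigenes of the other names and of the cell lists, were named after their values had been seen. "Electron-transferring" matches were removed from the fat body list after the data had been seen. TMM factors came from edgeR 4.0.16; intervals used SciPy 1.17.1. Calls and intervals were tried on simulated counts that held counting error alone. Changes were seeded there only in unigenes with at least 50 expected pupal reads. The simulation therefore says nothing of variation between animals or libraries, or of shallower members. No test across samples was possible with 1 library per stage.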

Additional observations from a re-analysis of the deposited data

How the results depend on the processing

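The fatty acid synthase sum and median kept their direction under every alternative run, and lower calls outnumbered higher ones in each. The median log2 ratio was −5.79 at a pseudocount of 0.1 and −3.20 at 5. Among unigenes of at least 500 bases 22 members were lower and 2 higher, and among those with at least 50 reads 30 and 4, fewer by construction; at a mean RPKM of at least 5, 4 were higher. The summed reads in pupae were 0.182 of those in prepupae with TMM scaling and 0.175 with median-of-ratios scaling, against 0.139. They were 0.0547 for members of at least 500 bases and 0.0313 without the members called higher. The latter, which drops members for their own values, could only deepen the decrease. Over the pathway lists, 10 were lower and 4 higher at 500 bases and 20 lower and 12 higher at 50 reads, against 46 and 15. Single members were refolded only under the 2 scalings, which multiply every fold by 1 constant and so say nothing of their stability. Of 216 alternative counts for single pathway lists, 28 moved by over 1.5 times, 22 of them under the limits of length or reads. Dropping matches that name the S-acetyltransferase left 50 lower and 7 higher. Added after seeing the data, leaving out the unigene with most reads moved the cytochrome P450 4G sum from 2.66-fold to 0.834-fold of its prepupal reads. No paired analysis was possible because each stage has 1 library, and for the same reason no library could be left out. Depth limits the decrease of members with 0 pupal reads to a lower bound.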
